A study of Mus musculus with 8 samples.

Results

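Coding-exon regions of reduced chromatin accessibility (RCAs) were stretches of liver chromatin that were called open in control mice, were not called open in Alb-D2KO mice, lay more than 200 bp from every annotated transcript start, and shared at least 1 bp with protein-coding sequence (CDS). By this rule, which used position in the mm10 annotation and no measured value, 413 of 8031 RCAs were coding-exon RCAs, or 5.14% (95% Wilson interval 4.68 to 5.65). The reverse list, of regions called open in Alb-D2KO and not in control liver, held 4 such regions among 250, or 1.60% (0.624 to 4.04). Accessibility was measured by ATAC-seq, in which a transposase inserts sequencing adapters where DNA is not covered, on 50000 nuclei per library from frozen adult liver of mice labelled C57BL/6, and C57BL/6J in the study's methods. There were 4 control and 4 Alb-D2KO libraries. The Alb-D2KO animals carried a floxed Dio2 gene and Cre recombinase under the albumin promoter, so that Dio2, which encodes the type 2 deiodinase that makes the active thyroid hormone T3, was inactivated in hepatocytes. The control samples carry "cre" in their titles. Sex and exact age were not given in the sources used here.

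Nuclei came from whole liver, so the other cells of the organ were included, and fewer cells of one type with an open region cannot be told apart from less open chromatin in each cell. The study reports that calling on single samples gave only a few regions, which it judged not to come from ATAC enrichment. Those regions were left out as a blacklist, and the calls were made by the authors over the 4 libraries of a genotype together. A region therefore has 1 value for all 4 control libraries, no replicate error can be given, and its absence from the Alb-D2KO calls is a difference between 2 lists and not a measured fold. For this reason no test was run, and the values of other classes of RCA are set beside those of the coding-exon RCAs as a description. Intervals are over regions and cover sampling of regions, not variation between mice. The Dio2 gene (chr12:90724552-90738438) overlapped no region of either list, and the RCA nearest to it lay 930101 bp away, so the lists hold no check of the deletion itself.

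Most of a gene's coding sequence is wrapped in nucleosomes and is read by ribosomes only after transcription and splicing. Some coding exons are also bound by transcription factors or overlap enhancers and secondary promoters, and their bases then serve both roles at once. In short or GC-rich genes the earliest coding exon lies within the open chromatin of the promoter, while in long genes coding exons are small islands between introns.

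The label of coding exon held for the whole of few regions. Of the 170.729 kb that the 413 regions covered, 65.3 kb (38.3%) were CDS, 80.8 kb (47.4%) were intron, 21.5 kb (12.6%) were other exon sequence and 3.08 kb (1.80%) lay outside transcripts. The median region was 32.8% coding, with quartiles of 16.2% and 56.7%. There were 42 regions that lay wholly in CDS and 136 that were at least 50% coding, whereas 16 regions held under 10 coding bases and 3, in Dvl1, Csk and Rapgef4, held 1. The summit, the base with the smallest p-value in a region, fell in CDS in 142 regions (34.4%, 29.96 to 39.1), in an intron in 205 (49.6%, 44.8 to 54.4), in other exon sequence in 63 and outside transcripts in 3. Thus the strongest signal of these regions lay in an intron more often than in the coding exon that placed them in the class. The shares of summits were near the shares of covered bases, 47.4% intron and 38.3% CDS. At the other edge of the rule, Asap2 lay 201 bp, Vtn 204 bp and Rap2a 213 bp from a start site, and 513 RCAs that overlapped CDS were left out because they lay within 200 bp of one.

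The bases under the summits show these arrangements. Each window is 121 bases of mm10 centred on the summit, given in the direction of the named gene, with coding bases in capitals and intron in lower case. They were taken from the strongest regions, and from Btg1, Zfp36l1 and Pex6 as regions of an early-response gene and of genes with 2 coding-exon RCAs; windows with other exon sequence are not shown. Apoa1 (chr9:46229998-46230118, plus strand), Btg1 (chr10:96618422-96618542, plus strand), Zfp36l1 (chr12:80109838-80109958, minus strand) and Pex6 (chr17:46712157-46712277, plus strand) are coding throughout. Ccnf (chr17:24224893-24225013, minus strand) and Tfr2 (chr5:137580262-137580382, plus strand) run from an exon across a splice donor into the intron. Rusc1 (chr3:89090862-89090982, minus strand) and Csad (chr15:102186444-102186564, minus strand) run from an intron across a splice acceptor into an exon. Faah (chr4:116007971-116008091, minus strand) and Acat3 (chr17:12925135-12925255, minus strand) are intronic throughout, and the Faah window consists in large part of a run of alternating g and t.
Apoa1: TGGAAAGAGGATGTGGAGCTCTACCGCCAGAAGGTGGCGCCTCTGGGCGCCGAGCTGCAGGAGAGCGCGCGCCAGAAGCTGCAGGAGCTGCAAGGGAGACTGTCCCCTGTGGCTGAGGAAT
Btg1: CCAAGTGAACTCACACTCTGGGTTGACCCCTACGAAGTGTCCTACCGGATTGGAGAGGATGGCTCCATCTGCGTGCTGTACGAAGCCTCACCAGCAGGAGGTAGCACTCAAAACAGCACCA
Zfp36l1: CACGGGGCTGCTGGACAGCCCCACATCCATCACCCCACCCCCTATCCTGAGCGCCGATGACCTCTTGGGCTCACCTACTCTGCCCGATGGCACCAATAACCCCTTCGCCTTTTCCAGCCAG
Pex6: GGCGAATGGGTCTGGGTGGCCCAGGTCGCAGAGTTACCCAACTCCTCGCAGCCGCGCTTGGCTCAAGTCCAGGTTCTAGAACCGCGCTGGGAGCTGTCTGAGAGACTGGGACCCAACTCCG
Ccnf: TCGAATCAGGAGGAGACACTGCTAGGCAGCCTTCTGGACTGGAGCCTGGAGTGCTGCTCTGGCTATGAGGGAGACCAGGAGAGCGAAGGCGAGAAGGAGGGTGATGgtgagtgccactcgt
Tfr2: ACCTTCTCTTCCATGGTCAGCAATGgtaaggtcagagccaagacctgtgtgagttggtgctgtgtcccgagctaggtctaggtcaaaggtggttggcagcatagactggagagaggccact
Rusc1: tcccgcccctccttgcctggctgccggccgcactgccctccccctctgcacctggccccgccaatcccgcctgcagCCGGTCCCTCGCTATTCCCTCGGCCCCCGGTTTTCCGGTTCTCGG
Csad: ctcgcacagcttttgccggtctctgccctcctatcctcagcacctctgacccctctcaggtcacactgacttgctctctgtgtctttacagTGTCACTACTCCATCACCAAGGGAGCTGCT
Faah: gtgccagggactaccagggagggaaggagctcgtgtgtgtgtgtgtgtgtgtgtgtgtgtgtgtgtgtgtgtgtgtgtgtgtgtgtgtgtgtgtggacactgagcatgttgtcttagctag
Acat3: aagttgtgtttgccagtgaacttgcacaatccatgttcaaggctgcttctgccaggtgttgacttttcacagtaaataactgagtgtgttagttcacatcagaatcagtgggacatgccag

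The strength of a region was its AUC, the area under the −log10 p-value along its length, in units of −log10 p times bp. It ranged from 200.192 to 2482 with a median of 286 (95% interval 278 to 296), and 233 of the 413 regions lay under 300 while 3 exceeded 1000. The smallest AUC in the whole list was 200.004, so that the low end of the members was set by the caller. In the plot of AUC against width, the AUC rises with the length of the region, and regions with the summit in CDS, intron or other exons overlap over most of the range. The median AUC was 281 (256 to 294) with the summit in CDS, 296 (282 to 316) with the summit in an intron and 267 (248 to 291) with the summit in other exon sequence, and these intervals overlap.

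**Figure D1:**
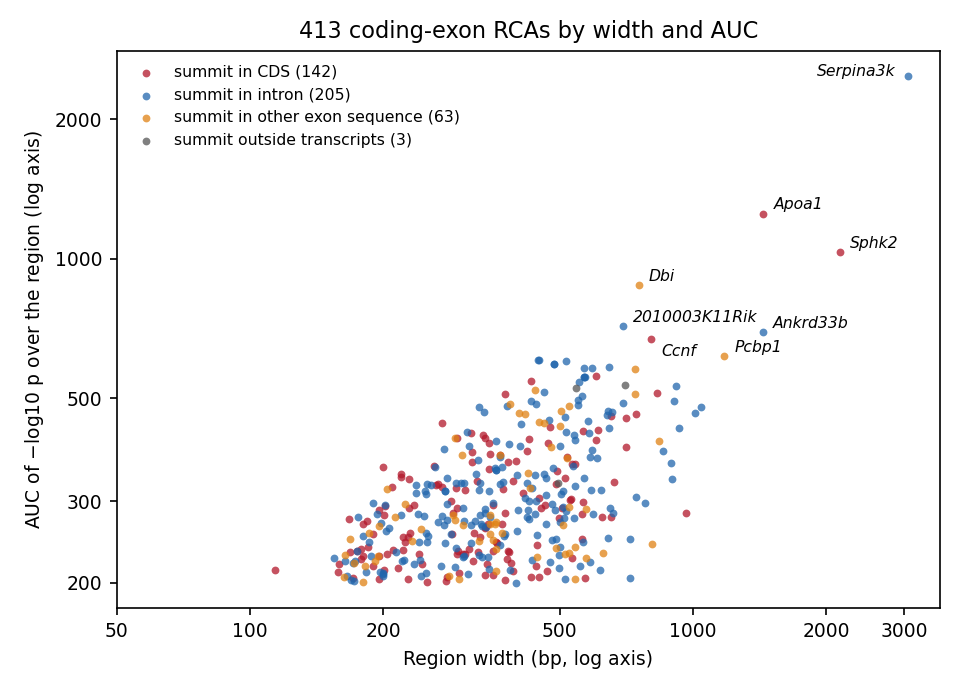
Each point is 1 of the 413 coding-exon RCAs, with its width in bp and its AUC of −log10 p on log axes, coloured by the feature that holds the summit (142 CDS, 205 intron, 63 other exon, 3 outside transcripts); the 8 strongest regions are named. The 3 regions above an AUC of 1000 lie in Serpina3k, Apoa1 and Sphk2 and are also among the widest, while 233 regions lie below 300.

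The strongest region overlapped Serpina3k, which encodes a secreted serine protease inhibitor made by hepatocytes. It spanned chr12:104344770-104347832, 3063 bp, with an AUC of 2482. The region held the stop codon and 186 coding bases (6.07%), codons 357 to 418 of 418, and 1688 bases lay beyond the end of the gene. Its summit lay 362 bp past that end, in an intron of a transcript annotated to the neighbouring Serpina3m. Overlap with CDS thus named this region Serpina3k although its summit and most of its length lay downstream of that gene.

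The next region lay in Apoa1, the gene of the main protein of high-density lipoprotein (chr9:46229732-46231171, 1440 bp, AUC 1253). It covered 595 coding bases of the last coding exon, codons 66 to 264 of 264, and its summit was in CDS. An RCA was also called at an Apoa1 start site, so that the gene was listed at both places, and both neighbours in the caller's numbering were RCAs as well. Sphk2, which encodes a sphingosine kinase, followed with a region of 2146 bp and an AUC of 1036 that held 1200 coding bases, the most of any member, and codons 218 to 617 of 617. Its signal was spread thinly, at 0.483 AUC units per bp against a median of 0.848 over members. The Sphk2 region also overlapped an exon of the clock gene Dbp on the opposite strand. Dbi, which encodes the acyl-CoA-binding protein, had an AUC of 880 over 754 bp, or 1.17 per bp, with 63 coding bases.

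The other regions among the 15 strongest had AUCs between 582 and 715. Faah, a hydrolase of fatty acid amides, had an AUC of 604 with 114 coding bases, Crat, the carnitine acetyltransferase, 601 with 52, and Csad, a decarboxylase in taurine synthesis, 593 with 80. Slc37a4, which transports glucose-6-phosphate into the endoplasmic reticulum, had an AUC of 585 with 121 coding bases, and Acat3, an acetyl-CoA acetyltransferase, 582 with 111. In all 5 of these the summit was intronic. The Acat3 region also overlapped an exon of Tcp1 on the opposite strand. 2010003K11Rik (715), Ankrd33b (695), Ccnf, the gene of cyclin F (671), Pcbp1, which encodes a poly(C)-binding protein (617), Rusc1 (606) and Mtfp1, a gene of mitochondrial fission (593), made up the rest of the 15 strongest. Of these 15 regions, 10 had an intronic summit, 3 a summit in CDS and 2 a summit in other exon sequence.

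Pcbp1 differed from the others in structure, because its CDS lies in 1 exon. The region covered codons 1 to 356 of 356, 1068 bases or 90.7% of its length. At the opposite end of the list stood Lrfn3 (AUC 200.875), which lay wholly in CDS, Armc6 (200.626), which was 48.3% coding, and Rnf217 (200.192), which held 30 coding bases.

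In median AUC, width and base composition, the coding-exon RCAs lay between promoter RCAs and all other classes. Their median width was 360 bp (347 to 382), against 391.5 bp in 1560 promoter RCAs, 318 bp in 405 RCAs of other exons, 311 bp in 3216 intronic RCAs and 296 bp in 2437 intergenic RCAs. The median AUC of 286 stood beside 304 at promoters, 273 in other exons, 271 in introns and 270 between genes. Per bp the order was the opposite, with 0.848 in coding-exon RCAs, 0.812 at promoters and 0.922 in introns. Repeat-masked bases made up a median of 3.85% of a coding-exon RCA and 6.41% of an intronic RCA. None of these differences was tested. A wide region meets the rule of 1 bp of CDS more readily. Part of the greater width and AUC may thus follow from the rule. In the 142 regions with the summit in CDS, the median AUC was 281 (256 to 294). That interval holds the medians of other exons, introns and intergenic RCAs. The median width of these regions was 340 bp (306 to 366). That interval holds the medians of other exons and introns but not the 296 bp of intergenic RCAs.

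**Figure D2:**
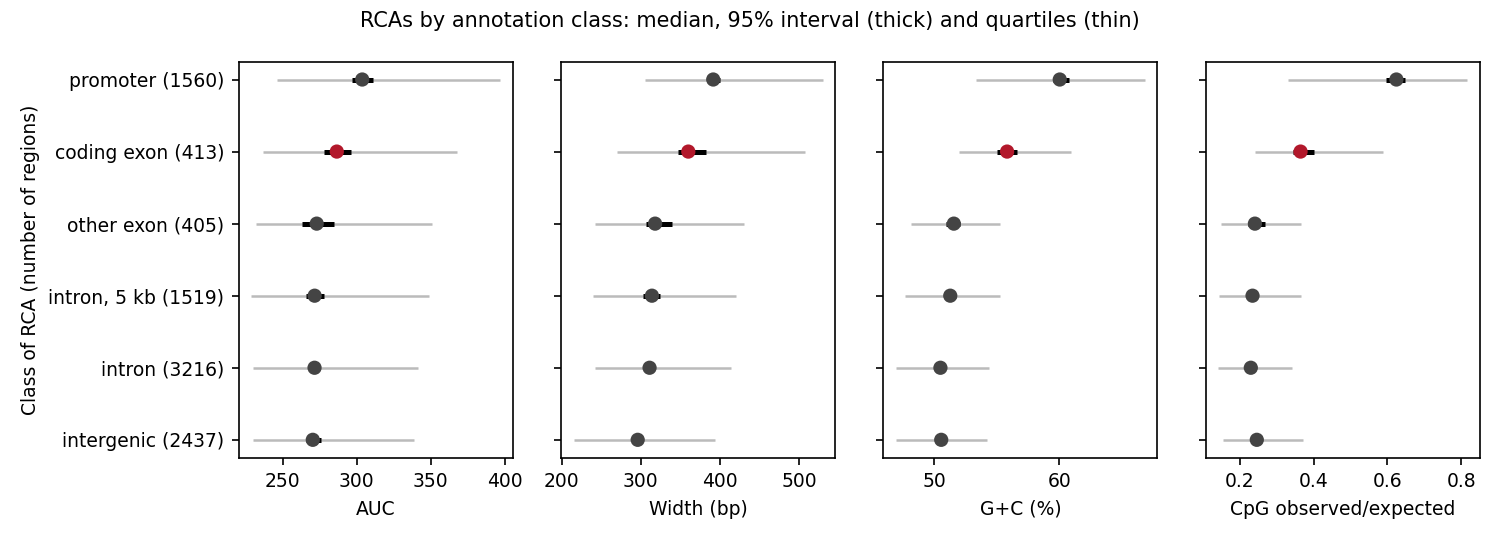
Median AUC (−log10 p times bp), width, G+C content and CpG observed/expected ratio of the RCAs of each annotation class, with the 95% interval of the median (thick bars) and the quartiles (thin bars); "intron, 5 kb" holds the intronic RCAs within 5 kb of a start site. In all 4 measures the median of the 413 coding-exon RCAs lies below that of promoters and above those of the other classes.

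The median G+C content was 55.8% (55.0 to 56.6) in coding-exon RCAs, 60.05% at promoters and 50.5% in introns. The ratio of observed to expected CpG was 0.365 (0.345 to 0.401), against 0.624 and 0.230. Coding sequence is rich in G and C in mice, so part of this followed from the rule. The bases of the members outside CDS, in the 366 regions with at least 30 of them, had a median G+C content of 54.4% (53.4 to 55.4), against 58.1% for the coding bases and 51.3% for intronic RCAs within 5 kb of a start site. The coding bases of a region were richer in G+C than the whole CDS of their own transcript in 226 of 367 regions (61.6%), by a median of 1.62 percentage points (SD 5.95 over regions). In the first coding exon the count was 38 of 46 and the median difference 5.95 points.

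Around the summit, G+C content rose within 50 bp in each set that was profiled. With the summit in CDS it reached 60.6% in the 50 bp before the summit, from 51.9% at 450 to 500 bp before it, and 89.7% of those central bases were coding against 29.6% at the edge. With the summit in an intron, 6.12% of the bases just before it were coding, and G+C content rose from 51.2% to 56.5%. Intronic RCAs within 5 kb of a start site rose from 48.1% to 53.7%. The rise toward the summit was thus seen with and without coding bases there.

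**Figure D3:**
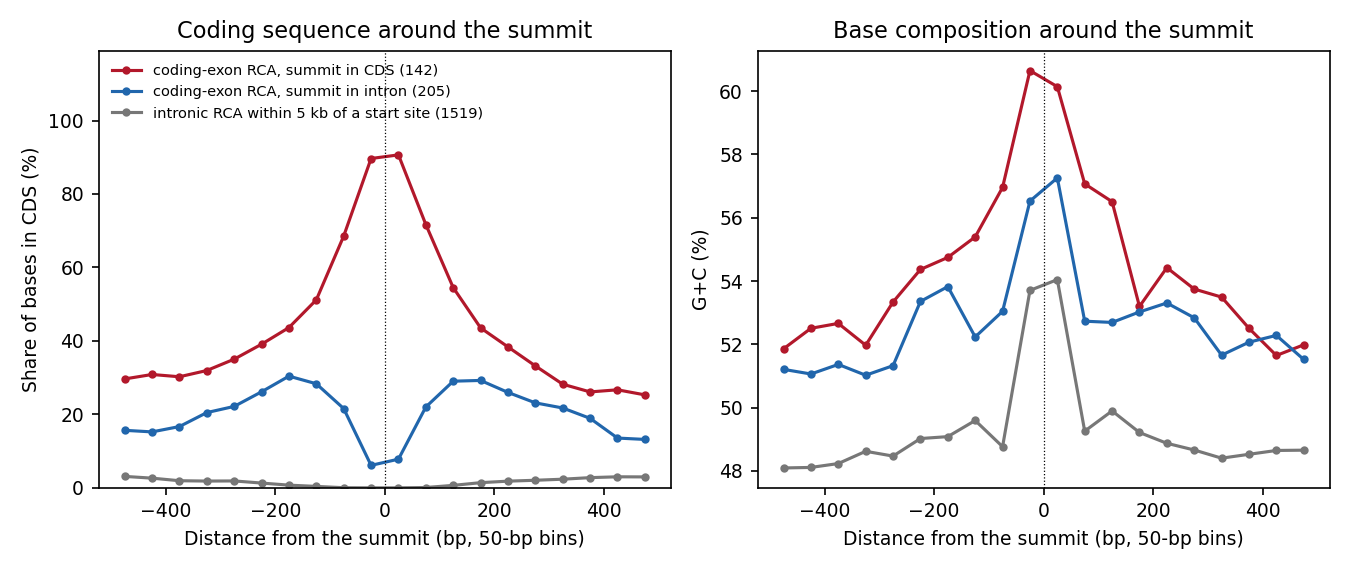
Share of bases in CDS (left) and G+C content (right) in bins of 50 bp around the summit, for coding-exon RCAs with the summit in CDS (142), those with the summit in an intron (205), and intronic RCAs within 5 kb of a start site (1519). The share of CDS peaks at the summit in the first set and dips there to 6.12% in the second, while G+C content has its peak at the summit in all 3 sets.

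Where the summit was intronic, a coding exon had to be near, since the rule requires each region to overlap CDS and these regions had a median width of 384 bp. The distance from the summit to the nearest coding exon, which is a description only, had a median of 86 bp, and 117 of the 205 summits lay within 100 bp. In the direction of the gene, 129 of these summits (62.9%, 56.1 to 69.2) came after the nearest coding exon and 76 before it. Those after it include Serpina3k, whose summit lay past the end of the gene. The rule leaves out regions near start sites, which lie before the first coding exon. The sides before and after were therefore not equally open to selection.

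The place of the coding exon in its transcript went with base composition and with distance from start sites. An internal coding exon was touched by 249 regions (60.3%), the last by 86, the first by 55 and a single coding exon by 23. Median G+C content was 65.2% (61.0 to 66.9) for the first coding exon, 62.1% (57.8 to 67.4) for single coding exons, 56.6% for the last and 54.2% (53.5 to 55.0) for internal ones. The CpG ratio followed the same groups, at 0.679 for the first and 0.770 for single coding exons against 0.366 and 0.314. Regions of the first coding exon lay a median of 487 bp from the nearest start site and internal ones 2386 bp. There were 94 regions (22.8%) with a CpG ratio of at least 0.6 and a G+C content of at least 50%.

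**Figure D4:**
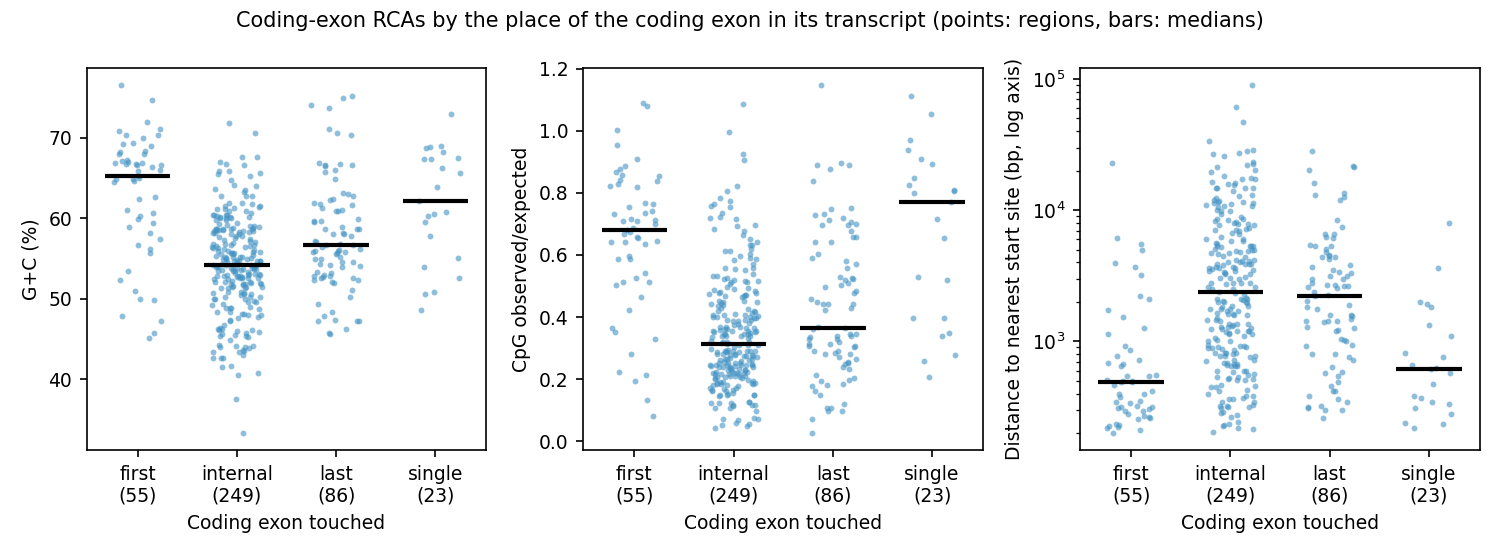
G+C content, CpG observed/expected ratio and distance to the nearest start site (bp, log axis) of coding-exon RCAs that touch the first (55), an internal (249), the last (86) or a single (23) coding exon; points are regions and bars are medians. Regions of first and single coding exons have the higher medians in the left and middle panels and the shorter median distances, with wide overlap between groups.

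A stop codon lay inside 62 regions and a start codon inside 21. Most regions touched 1 coding exon (374), 34 touched 2, and 5 touched 3, in Mettl26, Lcat, Adamtsl5, Sytl1 and Pex6. Along the CDS, the midpoints of the covered stretches had a median position of 49.0% of the coding length and quartiles of 21.6% and 79.4%. Whether they were evenly spread was not tested.

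The nearest start site was 201 bp to 1 kb away in 154 regions (37.3%, 32.8 to 42.0), 1 to 5 kb in 158, 5 to 50 kb in 99 and over 50 kb in 2, in Rapgef2 and Atp8b4. The share within 1 kb was 31.6% for other exons and 15.6% for introns. G+C content was lower farther from start sites, with a median of 58.6% within 1 kb, 55.9% at 1 to 5 kb and 52.6% at 5 to 50 kb.

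The caller numbered control open regions in genome order, up to at least 22367, and 35.9% of these were RCAs. The neighbours of the 413 coding-exon RCAs in this numbering were RCAs in 273 of 826 cases (33.1%), near that background. The same share was 43.7% for intronic RCAs, 42.0% for those of other exons, 40.8% for promoters and 41.9% over all RCAs. Neither neighbour was an RCA for 186 coding-exon RCAs (45.0%, 40.3 to 49.9), against 35.6% over all RCAs. Whether this lower share is particular to coding exons was not tested.

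The CDS of 408 genes was overlapped, 1.85% of the 22028 protein-coding genes of the annotation. When each region was given to the gene with the longest overlap, 402 genes remained, of which 11 had 2 coding-exon RCAs and none had 3 or more. Those 11 were Car3, Coro6, Hmcn2, Mindy1, Pck1, Pex6, Slc37a4, Smyd1, Sytl1, Vps13b and Zfp36l1, named here after their counts were seen. Another RCA lay in the body of 146 of the 402 genes (36.3%). An RCA of any class lay in the body of 15.6% of all protein-coding genes. An intronic RCA lay in 81 of the 402, and an RCA at a start site of the same gene in 57 (14.2%, 11.1 to 17.9). In 254 genes (63.2%, 58.4 to 67.8) the coding-exon region was the one RCA of the gene body and its start sites. The shares of all genes with an intronic RCA, an RCA at a start site or a sole RCA were not counted. Gene length, and whether a gene had any open region in control liver, were not taken into account. A region of the reverse list lay in the body of 2 of the 402 genes, Fez2 and Gm10717, named after their values were seen.

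In Pck1, the gene of the gluconeogenic enzyme PEPCK, one region lay over codons 267 to 321 (chr2:173155887-173156402, AUC 286) and the other over codons 591 to 622 of 622, at the stop codon (chr2:173158548-173159173, AUC 232). In Slc37a4 the second region had an AUC of 362 and held 508 coding bases. In Car3, a carbonic anhydrase of liver and muscle, the AUCs were 449 and 210, and in Vps13b, a large gene of membrane transport, 394 and 385. Thus the 2 regions of a gene could be close in AUC or differ by more than 200 units.

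Genes of hepatocyte function were present in small numbers. The shares of the gene lists below stand beside those of all protein-coding genes. That background includes any gene with no open region in control liver, and such a gene cannot hold an RCA. These genes were not counted, so more open regions and more loss of them cannot be told apart in any list. The lists were also chosen with earlier results of these data known. Of 80 genes of hepatocyte plasma proteins, 7 had a coding-exon RCA (8.75%, 4.30 to 16.98), beside 1.85% of all protein-coding genes, which is the share to set beside each list below, and 45 of the 80 (56.3%) had an RCA of any class in the gene body, beside 15.6% of all. The 4 with the highest AUC were Serpina3k, Apoa1, C4b, a complement component (526, with 13 coding bases at the stop codon), and Vtn, which encodes vitronectin (485). Alb, the albumin gene, whose promoter drove Cre from a transgene, had a region of 856 bp over codons 551 to 595 of 608 (chr5:90473981-90474836, AUC 386). Itih2 (317) and Apoc1 (254) were the other two. Alb, Itih2 and Apoc1 stood below the 4 highest of the list and were named after their values were seen. The summit was in CDS in Apoa1 and Itih2, in an intron in Serpina3k, Vtn, Alb and Apoc1, and outside transcripts in C4b. The shares of the lists were not recounted by the place of the summit.

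Of 53 hepatic transcription factors and nuclear receptors, 4 had a coding-exon RCA (7.55%, 2.97 to 17.9, beside 1.85% of all genes), and 33 (62.3%) had an RCA of any class, beside 15.6% of all genes. They were Srebf1, a regulator of lipid synthesis (464), Foxa1, a pioneer factor of liver (362), the orphan receptor gene Nr2c1 (356) and Pparg, a regulator of fat storage (233). The Foxa1 region was 75.8% coding and had its summit in CDS, over codons 25 to 159 of 468. Of 49 genes of lipid and carbohydrate metabolism, 4 were hit (8.16%, 3.22 to 19.2, beside 1.85%) and 27 (55.1%) had an RCA of any class. Those hit included Plin5, which coats lipid droplets (321), Pck1, and Lrp1, an endocytic receptor (277). The Plin5 region was 272 bp wide with 190 coding bases, and its summit was in CDS.

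The list of immediate early and stress genes had 5 of 44 hit (11.4%, 4.95 to 23.98), while 12 of the 44 (27.3%) had an RCA of any class, beside 1.85% and 15.6% of all genes. Btg1, an antiproliferative gene, had an AUC of 560, with codons 50 to 151 of 171 covered and the summit in CDS. Gadd45g, induced by DNA damage, followed with 345, and Zfp36l1, whose product promotes mRNA decay, with 330 in a region of 665 bp that was wholly coding. Ier5 (242) and the transcription factor gene Klf4 (237, wholly coding), the latter named after its values were seen, completed the list. The 44 together held 48.8 kb of CDS, and 102 genes were hit per Mb of CDS, beside 11.15 over all protein-coding genes. This density is higher where genes are short. It was 46.7 for transcription factors and nuclear receptors, 44.9 for plasma proteins and 33.5 for lipid and carbohydrate metabolism. For signalling, P450, amino acid and clock genes it lay between 11.3 and 26.8. For chromatin genes it was 3.15, and for thyroid hormone pathway genes 0.

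Each of the remaining lists of pathways had at most 1 gene hit, and no share was tested against the 1.85% of all protein-coding genes. Of 39 amino acid and urea cycle enzymes 1 was hit (2.56%, 0.454 to 13.2), Hpd of tyrosine breakdown (AUC 238). Of 57 cytochrome P450s and conjugating enzymes 1 was hit (1.75%, 0.310 to 9.29), the epoxide hydrolase gene Ephx2 (326). The chromatin list had 1 of 67 (1.49%, 0.264 to 7.98), the histone demethylase gene Kdm4a (244), and the list of insulin and growth hormone signalling had 1 of 40 (2.50%, 0.443 to 12.9), the adaptor gene Grb10 (225). The clock list had 1 of 20 (5%, 0.888 to 23.6), Per2 (307). None of 23 genes of the thyroid hormone pathway had a coding-exon RCA (upper Wilson bound 14.3%). An RCA of another class lay in 8 of the 23 (34.8%), beside 15.6% of all genes with an RCA of any class. The share with an RCA of any class was 59.0% for amino acid, 40.4% for P450, 35.8% for chromatin, 45.0% for signalling and 25% for clock genes.

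Markers of other liver cells were also examined. No coding-exon RCA was called in the 10 Kupffer cell, 10 liver endothelial cell, 10 stellate cell, 6 cholangiocyte or 5 lymphocyte markers. Of the 10 endothelial markers, 5 (50%) had an RCA of another class in the gene body. This stands beside 15.6% of all protein-coding genes with an RCA of any class, and was not tested. The other 4 lists had none of any class. With lists of this size, 0 of 10 has an upper Wilson bound of 27.8%.

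Tfr2 and Slc40a1, which ranked 16 and 23 by AUC, were named after their values were seen, and no list of iron genes was counted. Tfr2, the hepatocyte transferrin receptor that senses iron, had an AUC of 581 over 591 bp, with codons 419 to 459 of 798, and Slc40a1, which encodes the iron exporter ferroportin, 543 over 553 bp, with codons 63 to 91 of 570. Both summits were intronic, at 36 and 170 bp from the coding exon, and neither had a neighbouring RCA in the numbering.

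Among chromosomes 1 to 19, coding-exon RCAs per Mb of CDS ranged from 6.19 on chromosome 5 to 20.1 on chromosome 10. Chromosome 11 held the most, 45, and chromosome 10 had the highest density, 35 regions or 20.1 per Mb of CDS, against 11.4 over chromosomes 1 to 19 and X. Chromosome X had 1, in Magix, or 0.723 per Mb of CDS, and 40 RCAs in all.

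Short sequence words were counted on both strands in windows of 201 bp on the summits. GGGCGG, the core of SP and KLF sites, lay in 16.2% of coding-exon RCAs (13.0 to 20.1), 7.74% of intronic, 39.9% of promoter and 14.4% of all RCAs. AGGGGGC, part of the CTCF site, lay in 11.9% (9.09 to 15.3) of coding-exon RCAs, 5.63% of intronic, 9.94% of promoter and 7.87% of all RCAs. Within the class, AGGGGGC was in 13.2% of windows with an intronic summit and in 7.75% of those with the summit in CDS. Both words are rich in G and C, as the windows are.

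The other words are given for coding-exon and then for intronic windows, and the rare ones for coding-exon windows alone. TGTTTAC (FOXA) lay in 2.91% (1.67 to 5.01) of coding-exon and 5.88% (5.12 to 6.74) of intronic windows. This word is rich in A and T, unlike the windows, and the difference was not tested. AGGTCA, the half-site of nuclear receptors, lay in 21.8% and 26.9%. TGANTCA (AP-1) lay in 5.57% and 8.02%, and CACGTG (E-box) in 7.75% and 5.69%. CAAAGTCCA (HNF4A), GTTAATNAT (HNF1), TTGCGCAA (C/EBP), CCGGAAG (ETS) and GCATGCGC (NRF1) each lay in under 2% of coding-exon windows. None of these words contains another. A match is a string of letters and was not tested as a binding site.

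The 4 coding-exon regions called open in Alb-D2KO liver and not in control liver had their summits in CDS. They lay in Depp1 (chr6:116651841-116652060, AUC 272), Tlnrd1 (chr7:83882764-83883108, AUC 260), Hic1, which encodes a transcriptional repressor (chr11:75169127-75169301, AUC 212), and Svop (chr5:114028216-114028438, AUC 212). The first 3 were wholly coding and the Svop region was 79.8% coding. Their G+C contents were 63.6%, 66.1%, 71.4% and 63.2%, each above the upper quartile of 60.9% of the coding-exon RCAs, and their AUCs were below the median of the RCAs. The windows of 121 bases on their summits lie at chr6:116651903-116652023 on the plus strand and, on the minus strand, at chr7:83882950-83883070, chr11:75169181-75169301 and chr5:114028333-114028453. All are coding throughout.
Depp1: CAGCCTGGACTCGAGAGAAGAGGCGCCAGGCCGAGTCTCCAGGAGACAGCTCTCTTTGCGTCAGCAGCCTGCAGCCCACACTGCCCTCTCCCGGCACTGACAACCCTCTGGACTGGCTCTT
Tlnrd1: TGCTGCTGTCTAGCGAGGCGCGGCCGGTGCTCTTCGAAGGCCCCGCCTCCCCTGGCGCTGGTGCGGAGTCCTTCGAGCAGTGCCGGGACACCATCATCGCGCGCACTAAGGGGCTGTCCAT
Hic1: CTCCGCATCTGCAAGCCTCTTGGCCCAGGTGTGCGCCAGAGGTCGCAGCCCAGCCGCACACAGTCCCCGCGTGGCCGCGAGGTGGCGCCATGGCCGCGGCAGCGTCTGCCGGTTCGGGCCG
Svop: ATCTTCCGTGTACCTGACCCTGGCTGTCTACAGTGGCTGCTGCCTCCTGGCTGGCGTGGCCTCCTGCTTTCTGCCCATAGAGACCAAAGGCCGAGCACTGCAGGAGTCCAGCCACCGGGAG
None of these 4 genes had a coding-exon RCA. With 4 regions, no pattern among them was tested.

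For 5 of the 413 regions the genome held another copy that matched 80% or more of the region with 95% or higher identity, and reads there may be hard to assign. Minpp1, Phf20 and Ints5 had 1 copy each, and the repeat-rich regions of Gm10717 and Gm11168 had 32 and 52. Another 15 regions overlapped an exon of a gene on the opposite strand, and 5 overlapped the CDS of more than 1 gene.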

How the data were processed

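Per the labels and the study's methods, the authors trimmed adapters with NGmerge, aligned reads to mm10 with BWA 0.7.17, removed chimeric, duplicate, supplementary and low-quality (MAPQ under 30) alignments, and called open regions with Genrich 0.6 at q of 0.05 over the 4 libraries of each genotype, leaving out blacklisted regions and then regions called in the other genotype. The deposited signal is the area under the −log10 p curve of each region (AUC), the deposited −log10 q is that of the summit, and the deposited score, which was not analysed, is the caller's AUC per bp scaled and capped at 1000. Read depth per library was not given in these files, so its effect on the calls is unknown.

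Regions were classed with GENCODE M21 (the study used M24) in the order promoter (within 200 bp of a transcript start), coding exon (1 bp or more of CDS), other exon, intron, intergenic. Each region was named by the gene with the longest CDS overlap, and codons were counted in 1 representative transcript. Sequence came from GRCm38.p6, whose coordinates are those of mm10. Shares have 95% Wilson intervals and medians 95% order-statistic intervals (scipy 1.17.1). Genome copies were sought with BLAST+ 2.17.0. The classing was checked on simulated regions. By rule, named genes were the 15 strongest and 3 weakest regions, up to 4 per gene list by AUC, and the regions of the Alb-D2KO list. Every other gene in the text was named after its values were seen, including those at the edges of the rule, with 3 coding exons touched, far from a start site, alone on a chromosome or with a copy elsewhere. A gene is not reported here. The members and gene lists were chosen with earlier results of these data known. The alternatives tried are given in the closing section.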

Additional observations from a re-analysis of the deposited data

How the results depend on the processing

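The calls were pooled over libraries, so no library could be left out. No paired analysis was possible because the result comes from no test. Of 80 values recomputed under 10 settings, 45 stayed within their interval, or within 1.5 times for counts, and 35 moved; merging regions within 100 bp and keeping chromosomes 1 to 19 and X moved none. With a start-site window of 1000 bp there were 259 regions in 255 genes, with a median G+C content of 54.7% and width of 340 bp; with 3000 bp there were 157 in 154 genes, with 53.7%, 325 bp, a median AUC of 277 and 1 region open in Alb-D2KO; both windows leave 0 regions within 1 kb by construction. With at least 50% of the region in CDS, 136 regions in 138 genes remained, with an AUC of 276, a width of 337.5 bp, a G+C content of 60.2%, 77.2% of summits in CDS and 47.8% within 1 kb of a start site. With the summit in CDS, by construction 100% of summits, 142 regions overlapped 143 genes, with 58.7% G+C and 340 bp. Basic transcripts alone left 27.7% within 1 kb. A summit q of at most 0.001 gave an AUC of 316 and 346.5 bp. An AUC of at least 300 left 180 regions in 180 genes and 0 in the Alb-D2KO list, with an AUC of 388, 456 bp and 43.3% within 1 kb. A width of at least 200 bp gave an AUC of 297 and 385 bp. The size of the class thus depends on how CDS overlap and promoters are defined. In every setting the median G+C content stayed above 51.3%, that of intronic RCAs within 5 kb of a start site under the main rule. The 51.3% was not recomputed under the settings. Every setting also required CDS, which is rich in G and C, so this cannot show a difference apart from the rule. The pooled lists allow no estimate of variation between mice, and a region may miss the Alb-D2KO list by a small margin.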
